A study of Mus musculus with 14 samples.

Results

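The cytosolic ribosomal protein genes were examined in 14 single cells labelled as glomerular mesangial cells. Of 35271 genes in the table, 80 were members: 31 genes of the small, 40S subunit and 49 of the large, 60S subunit. They were taken by mouse symbol, as Rpl or Rps with a number and at most 1 closing letter, together with Rplp0, Rplp1, Rplp2 and Rpsa. The symbols matched 82 genes, and Rpl6l and Rps4l were left out because GENCODE M21 annotates them as processed pseudogenes. Mitochondrial ribosomal proteins and the Rps6k kinases were not members. All cells came from 1 male wild-type mouse, 8 weeks old; the series text gives its strain as C57BL/6, while the sample labels write C56BL/6. Glomeruli were isolated with beads and a magnet and digested with enzymes, and a Fluidigm C1 instrument, which captures each cell in its own chamber, lysed the cells and made cDNA. The cells form 1 group without a treatment. Because the animal is the replicate, no test was made, and ranges or SDs over cells describe these cells.

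Levels are given as RPKM, which scales reads by the length of the gene and the total of the cell, so levels of different genes are compared per length. The lengths behind the deposited values are not known here. Exon lengths of members, joined over their GENCODE M21 transcripts, ran from 383 to 6270 bases. A gene was called detected in a cell at an RPKM of at least 1. Read totals recovered from the steps of the values ran from about 6595890 to 23818100 reads per cell, at which 3 reads on 1 kb equal an RPKM of 0.126 to 0.455. A cell had 1770 to 5277 genes detected, with GL_M_36 and GL_M_47 at the top. Of 9 mesangial markers 8 were detected in some cell, led by Gata3, whose lowest cell was at 2518 RPKM, while Tbx18 was listed at 0 in all 14. Summed over the 9 markers, cells had 6981 to 23018 RPKM. GL_M_30 had 9 of 12 endothelial markers at an RPKM of 10 or more and a summed level of 4116, against at most 4 markers and 8.23 to 2075 in the other cells. GL_M_55 had 5 of 8 podocyte markers at that level and a sum of 2178, against at most 2 markers and 0.427 to 512 elsewhere. Markers of the proximal tubule and of red cells were detected in no cell. Of 5 leukocyte markers 2 were detected in some cell. Fcer1g was detected in 3 cells, with 923 in GL_M_85, and Cd3d in 5 cells, at most at 5.62.

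The ribosome has a small subunit that reads the mRNA and a large subunit that joins amino acids. Both are built from ribosomal RNA and a large set of proteins, and the ribosomal protein mRNAs are among the most abundant of growing cells. Their transcripts typically begin with a terminal oligopyrimidine tract, the TOP motif, a run of C and U letters at the cap through which mTORC1 and LARP1 set their translation. Mammalian genomes also hold very many processed pseudogenes of these genes.

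The TOP run is the sequence feature that the members are best known for, and their annotated starts are shown for 2 contrasts. The first is 5 of the genes detected in every cell. The second is the tissue-restricted copies Rpl10l, Rpl39l and Rpl3l, which were listed at 0 in every cell, with the ancestral genes Rpl10 and Rpl39. Each sequence runs from 20 bases before the RefSeq start through the first 20 transcribed bases, on the gene's strand (GRCm38.p6). Capitals mark the longest run of C or T in it, and the first of them where 2 are equally long, as in Rpl39, which holds another run of 8 after its start.
Rps27 (chr3:90213629-90213668, minus): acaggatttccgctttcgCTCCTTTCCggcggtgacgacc
Rps24 (chr14:24490658-24490697, plus): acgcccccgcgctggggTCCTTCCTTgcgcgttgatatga
Rpl13 (chr8:123102330-123102369, plus): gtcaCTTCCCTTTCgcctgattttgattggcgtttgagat
Rpl41 (chr10:128549149-128549188, minus): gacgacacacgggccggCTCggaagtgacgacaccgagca
Rpl35a (chr16:33056433-33056472, plus): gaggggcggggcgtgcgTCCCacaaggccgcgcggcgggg
Rpl10 (chrX:74270796-74270835, plus): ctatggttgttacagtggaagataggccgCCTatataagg
Rpl10l (chr12:66284382-66284421, minus): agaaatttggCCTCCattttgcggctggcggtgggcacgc
Rpl39 (chrX:37085203-37085242, minus): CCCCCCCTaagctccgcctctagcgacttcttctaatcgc
Rpl39l (chr16:10170208-10170247, plus): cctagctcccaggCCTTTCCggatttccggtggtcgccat
Rpl3l (chr17:24727806-24727845, plus): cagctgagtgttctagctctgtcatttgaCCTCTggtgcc

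In Rps27 a run of 9 pyrimidines began 2 bases before the annotated start, and in Rps24 a run of 9 began 3 bases before it. In Rpl41 and Rpl10 the longest run in the window had 3 letters, and Rpl10l and Rpl3l had 5. The promoter table held 60 of the 80 members. A run of at least 8 C or T within 20 bases either side of a listed start was present in 29 of them (48.3%), against 18.4% of all 27025 genes in the table. By subunit the share was 47.8% for 40S and 48.6% for 60S. With a run of at least 10 it was 26.1% for 40S (6 of 23 genes) and 43.2% for 60S (16 of 37). Of all genes 8.61% had a run of that length. On the opposite strand (A or G on the gene's strand) a run of at least 8 was present in 8.33% of members and 20.2% of all genes. With the window widened to 50 bases on each side, 51 members (85%) had a run on the sense strand, against 39.3% of all genes. Taken at the first listed start, the 27 members with a run had a median level of 48.4 RPKM over genes and cells, against 69.2 RPKM in the 33 with a shorter one. Both groups were detected in a median of 11 cells, and the group with a shorter run includes the 3 copies at 0. A run of these letters is a description, not a mapped cap site.

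Of the 80 members, 77 were detected in some cell, against 29.2% of all genes of the table, and 10 (12.5%) in all 14. Of all genes seen in at least 1 cell, 1.55% passed in all 14, and of the 5008 genes averaging 10 RPKM or more, 3.13% did. At an RPKM of 10 or more in at least 10 cells there were 43 members (53.8%), against 4.43% of genes detected in some cell and 9.11% of those with a mean of at least 10. Most members, 51, were detected in 10 to 13 cells, another 14 in 7 to 9 cells and 2 in fewer. The middle of the members' median levels was 66.5 RPKM. So the class was high and widespread, yet each cell lacked a detected transcript of some members.

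Within a cell a ribosomal protein gene was more often at 10 RPKM or more, or below 1, than in between. Of the 1120 values of the 80 members in 14 cells, 43.2% were at an RPKM of 100 or more and 23.3% from 10 to below 100. A further 10.2% lay from 1 to below 10, 13.5% were above 0 but below 1, and 9.82% were at 0. The 151 values between 0 and 1 had a median of 0.0672% of the same gene's highest cell. Among all genes detected in some cell, 9.14% of values were at 100 or more and 47.1% at 0. From 1 to below 10 lay 10.7% of their values, near the share of members. The thin middle class is thus not particular to the members.

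**Figure D1:**
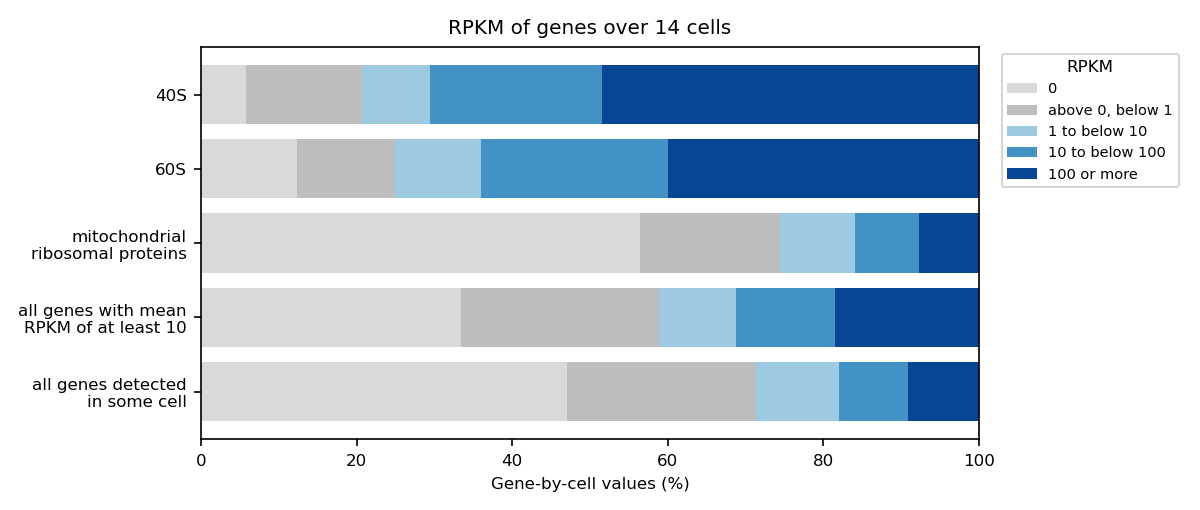
Share of gene-by-cell RPKM values (horizontal axis, percent) in 5 classes of level, for 40S members, 60S members, mitochondrial ribosomal proteins, genes averaging 10 RPKM or more and genes detected in some cell. The darkest class, 100 or more, holds 48.4% of 40S values and 39.9% of 60S values, against 7.70% of mitochondrial ribosomal protein values.

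Rps27 and Rps29, 2 small zinc-binding proteins of the 40S subunit, were the members at 10 or more in every cell, and all of their values exceeded 100. Of genes detected in some cell 0.699% were at 10 or more in all 14, and of those averaging 10 or more 1.44%. Rps27 had a lowest RPKM of 118 in GL_M_75, a median of 258 and a highest of 612 in GL_M_85. Rps29 had 109 in GL_M_11, a median of 308 and 1027 in GL_M_91. They were also the steadiest of the members averaging 10 RPKM or more, with log2(RPKM + 1) of 8.10 ± 0.70 for Rps27 and 8.25 ± 0.75 for Rps29 (mean ± SD, n = 14 cells). The highest cell exceeded the lowest 5.18-fold for Rps27 and 9.43-fold for Rps29. On the minus strand of GRCm38, Rps27 (ENSMUSG00000090733) spans 90212522 to 90213651 of chromosome 3 and Rps29 (ENSMUSG00000034892) 69157722 to 69159186 of chromosome 12. Rps27rt, a retrogene outside the rule that shares 91.1% of its 50-base runs with other transcripts, followed Rps27 closely. Its RPKM was 0.526 to 0.811 of that of Rps27 in every cell, and how reads of the pair were split is not known.

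The other 8 members detected in every cell, 7 of 60S and Rps24 of 40S, reached lower minima. Rpl41, a tiny basic peptide that forms a bridge between the subunits, had a median RPKM of 619, with 1225 in GL_M_51 and 9.52 in GL_M_55, its next lowest cell being at 166. Rpl32 ranged from 2.04 in GL_M_55 to 1202 in GL_M_60, with a median of 313. Rpl13 ranged from 5.67 in GL_M_55 to 671 in GL_M_51, with a median of 197, and shared 80.3% of its runs with other transcripts. Rplp1, an acidic protein of the stalk that recruits elongation factors, had a median of 153 and its lowest value, 3.002, in GL_M_6. Rpl35a, at a median of 116, and Rpl8, at 83.5, had their lowest values of 1.69 in GL_M_11 and 1.48 in GL_M_65. Rpl29, at a median of 30.6, had at least 6.42 in every cell although its median was the lowest of the 10. Rps24, at a median of 49.9, passed the limit of 1 narrowly, with its lowest value in GL_M_55. Thus 4 of these 8 genes were lowest in GL_M_55, the cell with podocyte transcripts and the fewest members detected; the part of those transcripts in this was not tested.

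**Figure D2:**
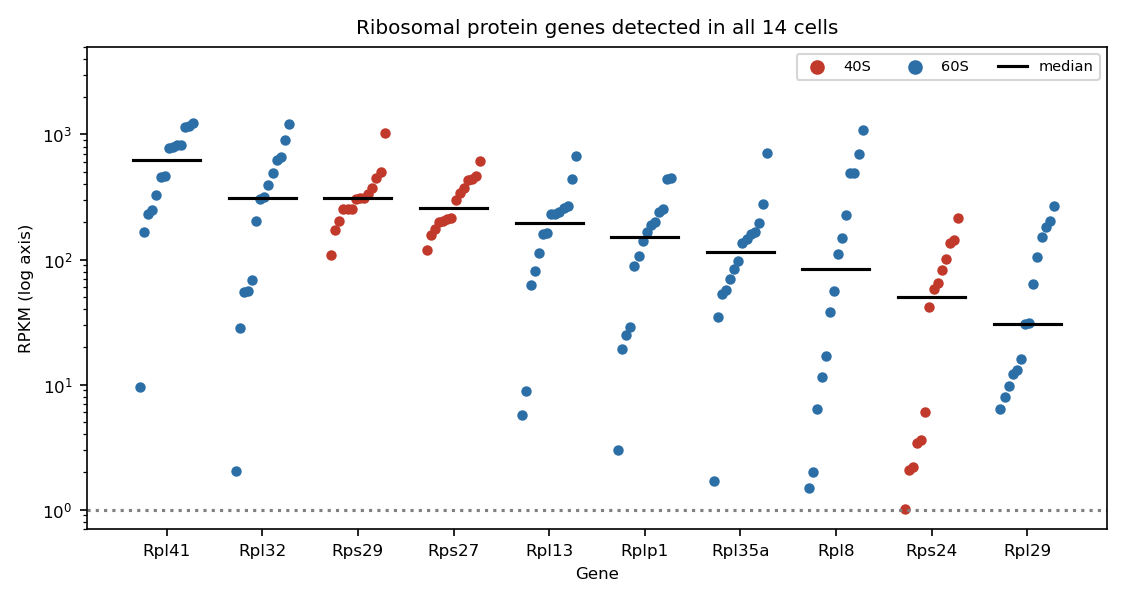
RPKM (log axis) of the 10 members detected in all 14 cells, with 1 point per cell in ascending order within each gene and a black line at the median; the dotted line marks an RPKM of 1. Rps27 and Rps29 stay above 100, while the other 8 have at least 1 cell below 10.

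Rps14, a protein of the 40S platform near the decoding region, had the highest median of the class, 712 RPKM, with at least 45.5 in 13 cells and up to 1135 in GL_M_30. In GL_M_51 it was at 0.359. This was 1 of 10 members missed in exactly 1 cell. Of these, Rpl14, Rpl30, Rpl37 and Rpl38 were missed in GL_M_55, Rpl21 in GL_M_6 and Rpl7 in GL_M_11. Rps6, the substrate of the S6 kinases, was missed in GL_M_91. GL_M_55 accounted for 4 of the 10, and without this cell 14 members in place of 10 were detected in every cell.

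A median of at least 100 RPKM was reached by 27 members, 12 of 40S and 15 of 60S. A median below 1 was found for 5, all of 60S. These were Rpl22, Rpl12 and the tissue-restricted copies Rpl3l, Rpl10l and Rpl39l, which were at 0 throughout. In the 40S subunit the genes below Rps14, Rps29 and Rps27 included Rps25, Rps9, Rps19, Rps28 and Rps18, with medians of 253 for Rps25 to 129 for Rps18. Each of these 5 was detected in 12 cells. Rps28 was at 0 in GL_M_29 and at 1067 in GL_M_94. In the 60S subunit Rpl21 came after Rpl41, with a median of 357, and was at 59.9 or more in 13 cells but at 0 in GL_M_6. Rpl7 ranged from 0.495 in GL_M_11 to 1715 in GL_M_51, with a median of 313. Rpl37a and Rpl9, at medians of 145 and 140, were each detected in 12 cells and reached 864 and 837. Of the 27 members, Rps27 and Rps29 had no value below 100.

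A different member led from cell to cell. Over the 14 cells 9 genes took first place, among them Rps14 in 3 cells and Rpl10 and Rpl32 in 2 each. Rpl34, at a median of 48.4, reached 1596 in GL_M_55 and was 15.6% of the members' sum there. Rps21, with a median of 19.6 and up to 572 in GL_M_6, and the 60S genes Rpl13a, up to 590, and Rpl3, up to 541, were among the most variable members averaging 10 RPKM or more, together with Rps27l. The 10 highest members of a cell held 37.5% of the members' sum in GL_M_36 and 74.4% in GL_M_55.

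**Figure D3:**
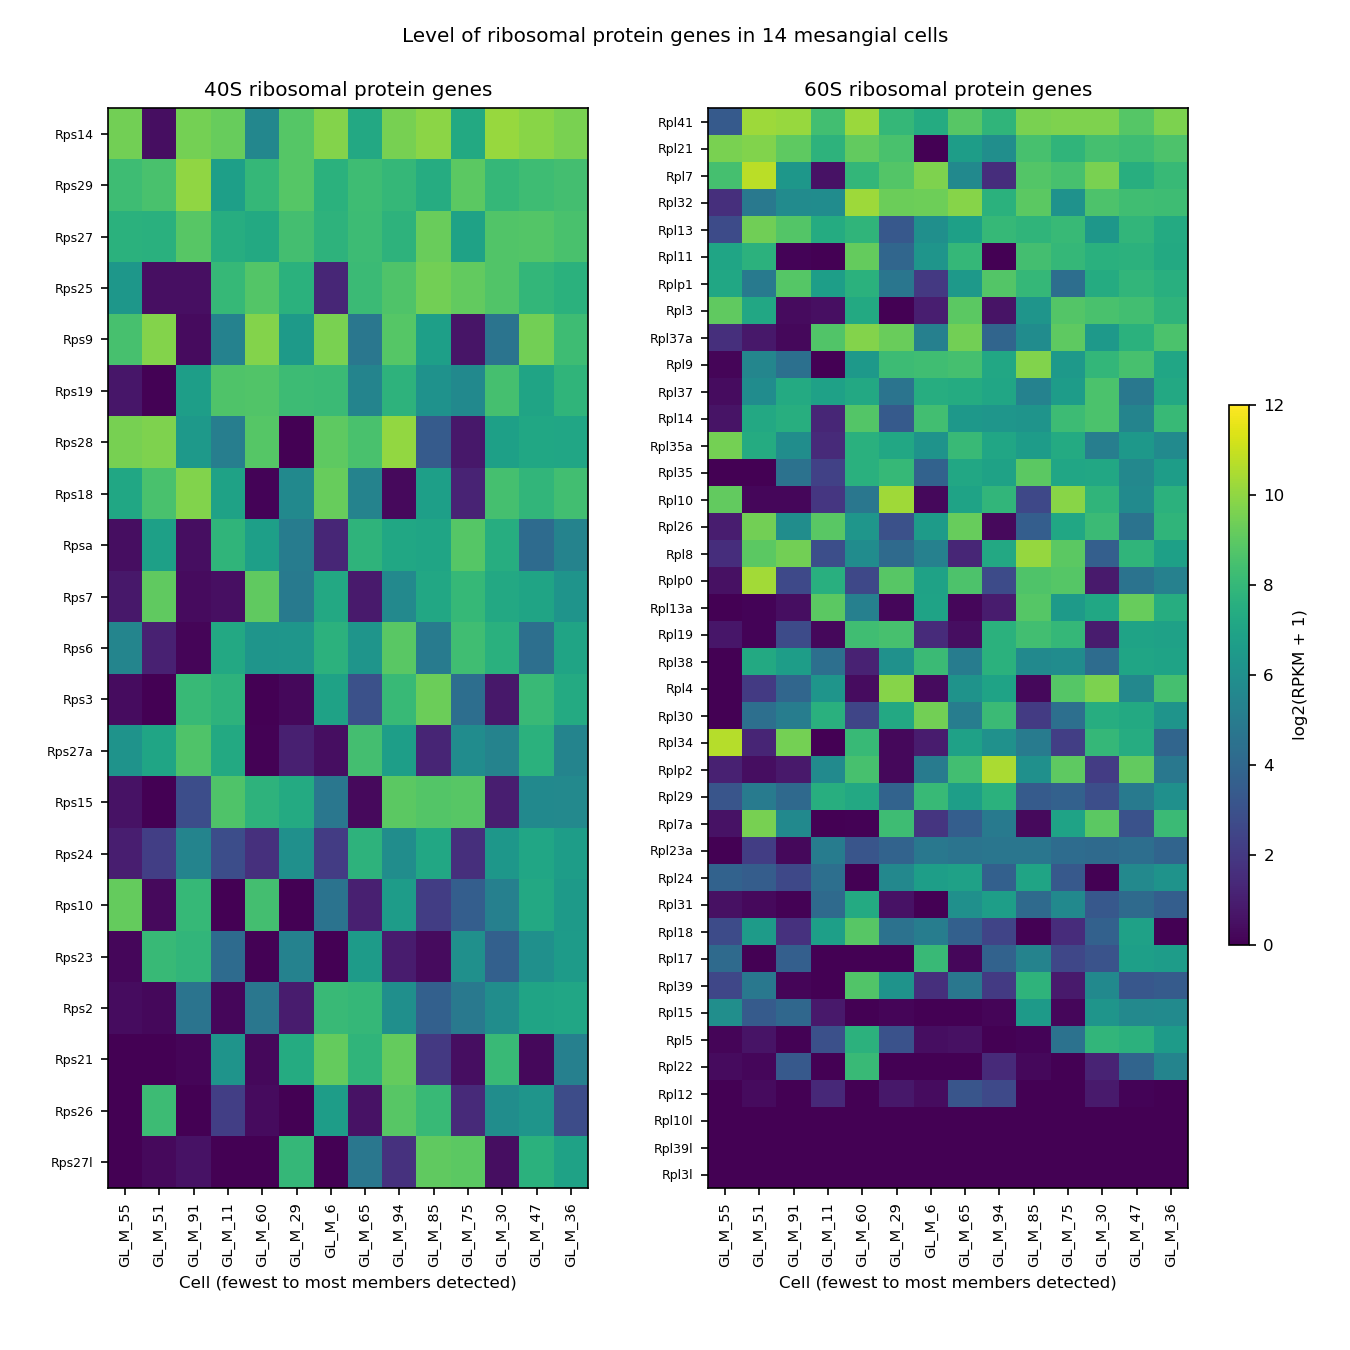
Level of the 61 members named in the text (rows, by falling median) as log2(RPKM + 1) in colour, for 21 genes of 40S at left and 40 of 60S at right; columns are the 14 cells from fewest to most members detected. Dark squares scattered over nearly all rows show members at or near 0 in single cells, and the bottom 3 rows of the 60S panel are at 0 throughout.

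Members detected per cell ran from 39 in GL_M_55 to 75 in GL_M_36, with a median of 61.5. GL_M_51 had 48 and GL_M_91 had 51, while GL_M_47 had 74 and GL_M_30 had 69. In GL_M_36 all 31 genes of the 40S subunit were detected. Its missing 60S members, beside the 3 silent copies, were Rpl12 and Rpl18. Cells with more genes detected had more members detected (Pearson's r = 0.75, Spearman's rho = 0.86 over 14 cells, and 0.66 and 0.78 without GL_M_36 and GL_M_47). With read totals the values were r = -0.16 and rho = -0.03, and 0.12 and 0.32 without GL_M_51 and GL_M_60. These cells share an animal and a preparation, and the figures describe them. The share of a cell's summed RPKM held by members ran from 1.57% in GL_M_11 through a median of 2.18% to 2.86% in GL_M_51. GL_M_51 had thus the highest share but the second lowest number of members detected.

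The 40S genes were compared with the 60S genes within each cell. The mean RPKM per gene was 113 to 317 for 40S, with a median over cells of 187, against 85.2 to 213 for 60S, with a median of 153. The 40S mean was higher in 9 of 14 cells, and the ratio of 40S to 60S had a median of 1.23 and ran from 0.703 in GL_M_65 to 2.43 in GL_M_94. The ranges overlapped and the direction differed between cells, so no constant order of the subunits was present. In GL_M_94 the 40S genes averaged 317 RPKM and the 60S genes 130, and in GL_M_91 they averaged 244 and 103. In GL_M_65 and GL_M_29 the 40S genes averaged 113 and 121, against 161 and 167 for the 60S genes. Summed over genes, of which 60S has more, the ratio of 40S to 60S had a median of 0.776, and the 40S sum was higher in 4 cells. Mean levels of the subunits had r = -0.04 and rho = 0.01 over the 14 cells, and -0.20 and -0.15 without GL_M_11 and GL_M_60.

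The share of 40S genes detected ran from 48.4% to 100%, with a median of 82.3%, against 48.98% to 89.8% and a median of 76.5% for 60S (r = 0.85 and rho = 0.83 over 14 cells, 0.76 and 0.73 without GL_M_55 and GL_M_91). It was higher for 40S in 10 cells. The 60S list, however, holds 3 of the 4 tissue-restricted or variant copies. With Rps27l, Rpl3l, Rpl10l and Rpl39l left out, the 40S share was higher in 7 cells and the 60S share in 7, and the median ratio changed to 0.998, against 1.06 with them. The mean RPKM per gene was still higher for 40S in 9 of 14 cells, with a median ratio of 1.17. GL_M_51 stood apart with 51.6% of 40S genes detected against 65.3% of 60S genes, and a median 40S gene of 1.15 RPKM against 19.7 for 60S. The SD of log2(RPKM + 1) over cells had a median of 3.18 for the 31 genes of 40S and 2.93 for the 46 genes of 60S that averaged 1 RPKM or more. All 7976 genes that passed this filter had 2.30, and at an average of 10 or more members had 2.99 and all genes 2.79.

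**Figure D4:**
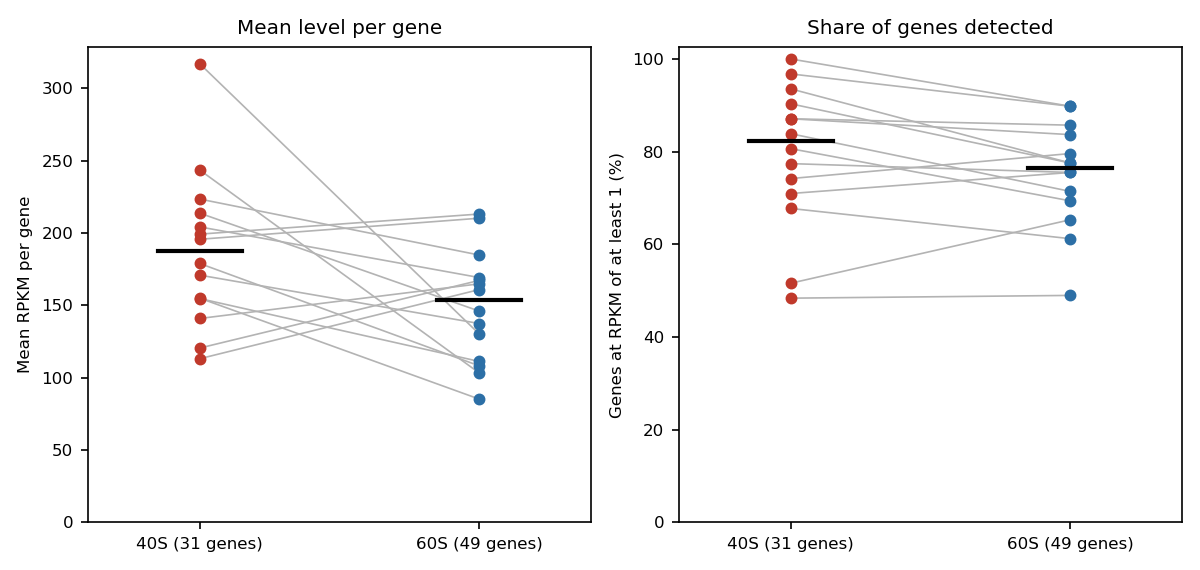
Mean RPKM per gene (left) and percent of genes detected (right) for 40S and 60S members, with 1 point per cell, grey lines joining the values of a cell and black bars at the median over 14 cells. Lines cross in the left panel, where 40S is higher in 9 of 14 cells, and in the right one 40S is higher in 10.

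Of the genes at the mRNA channel and decoding site, 8 were listed and 0 were detected in every cell. Over all members the share was 12.5%, and 0 in a group of 8 is near it. Next to Rps14, Rps28 had a median of 138 and Rps3, which also acts in DNA repair, of 69.2. Rps15 had 50.2, Rps23, which lies at the decoding centre, 28.4, Rps2 26.8 and Rps26, which contacts the mRNA upstream of the start codon, 4.81. The range of medians thus exceeded 100-fold within 1 group.

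The stalk and its base were uneven. Rplp1 had a median of 153 and was in all 14 cells, Rplp0, the scaffold of the stalk, had 79.0 and was in 12, and Rplp2 had 41.9 and was in 11. Rplp0 reached 1295 in GL_M_51 and Rplp2 1412 in GL_M_94. Rpl12, which sits at the stalk base, was in contrast the lowest core member, at most at 7.87, in GL_M_65. It was detected in 3 cells (95% Clopper-Pearson 4.66% to 50.8%, with cells taken as independent). It (ENSMUSG00000038900) spans 32961559 to 32965345 of chromosome 2, plus strand, and shared 49.4% of its runs with other transcripts, close to several members that were high. The part of shared sequence in its low level was not tested.

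Rpl5 and Rpl11 enter the 5S particle, which can bind the p53 inhibitor Mdm2 when ribosome assembly fails. Rpl11 had a median of 177 and was detected in 11 cells, but Rpl5 had 3.59 and was detected in 7, with a highest value of 235 in GL_M_30. The sequence of Rpl5 was shared to 85.4%, that of Rpl11 to 54.0%. Around the polypeptide exit, Rpl35 had a median of 111, Rpl26 86.2, Rpl19 61.5 and Rpl4 59.9. Rpl23a, a docking site of nascent chain factors, had 17.5 and at most 32.3, but was at 0 in GL_M_55 and at 0.205 in GL_M_91. Its SD on the log2 scale, 1.63, was still the third lowest of the members averaging 10 RPKM or more. Rpl31 had 13.8, Rpl17 9.36, Rpl39 9.17 and Rpl22, an RNA-binding protein, 0.252. Rpl22 reached 282 in GL_M_60 and its next highest value was 42.0. Rpl24, at the subunit interface, had a median of 16.4, far below Rpl41.

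Among genes mutated in human Diamond-Blackfan anaemia, an inherited failure of red cell formation, 12 were listed. Detection ranged from 7 cells for Rpl5 and Rpl15 to all 14 for Rps24, Rps29 and Rpl35a. Rps19 had a median of 174 and Rps7 of 100.01, while Rps10 had 29.4 and Rpl15 5.31. Rpsa, which also serves as a laminin receptor, had a median of 109.9 and Rps6 of 77.4. Rps27a, translated as a fusion with ubiquitin, had a median of 63.1 and was detected in 12 cells.

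Tissue-restricted or variant copies were at 0 or patchy. Rpl3l, a striated muscle form of Rpl3, Rpl10l, an intronless testis form of Rpl10, and Rpl39l, a testis form of Rpl39, had an RPKM of 0 throughout. With 0 of 14 cells, detection in up to 23.2% of such cells remains possible (Clopper-Pearson). Of all protein-coding genes in the table, 58.2% were detected in no cell. Their ancestral genes had medians of 151 for Rpl3, 87.3 for Rpl10 and 9.17 for Rpl39. The silent copies shared at most 7.60% of their sequence with other transcripts. Rps27l, a p53-responsive form of Rps27, was detected in 7 cells and at 10 or more in 6, with 543 in GL_M_85 and 501 in GL_M_75, and was listed at 0 in 4. Rps27 was above 100 in those cells too. Rps27l therefore varied over cells in which Rps27 was steady.

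Members differed in how much of their sequence is shared with transcripts of other genes, mostly pseudogenes, and counters differ in how they treat reads that fit several places. The share of 50-base runs found elsewhere was 0% to 95.1%, with a median of 35.8%, and was at least 50% in 26 members. Rpl7a had 108 other genes that shared at least 1% of its runs, Rpl21 and Rpl29 65 each and Rps2 63. Over the 80 members the rank correlation of shared sequence with level was low (Spearman's rho = 0.14 with the median RPKM and 0.09 with the number of cells detected). The 9 members with under 10% shared had a middle level of 9.33 RPKM, 3 of them being the copies at 0, and the highest was Rpl8, at 83.5. The 45 members from 10% to below 50% had a middle level of 86.2, and the 25 from 50% to below 90% of 63.1. Rpl35, with the highest share, had a median of 111. Among the 602 pseudogenes of the table that share at least 1% of a member, 112 were detected in some cell and 0 in all 14, and together they held a median of 0.0218% of a cell's RPKM. Highest was Gm10132, with a median of 5.42. Because no source used here gives the treatment of such reads, absolute levels of the members with much shared sequence are less certain.

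**Figure D5:**
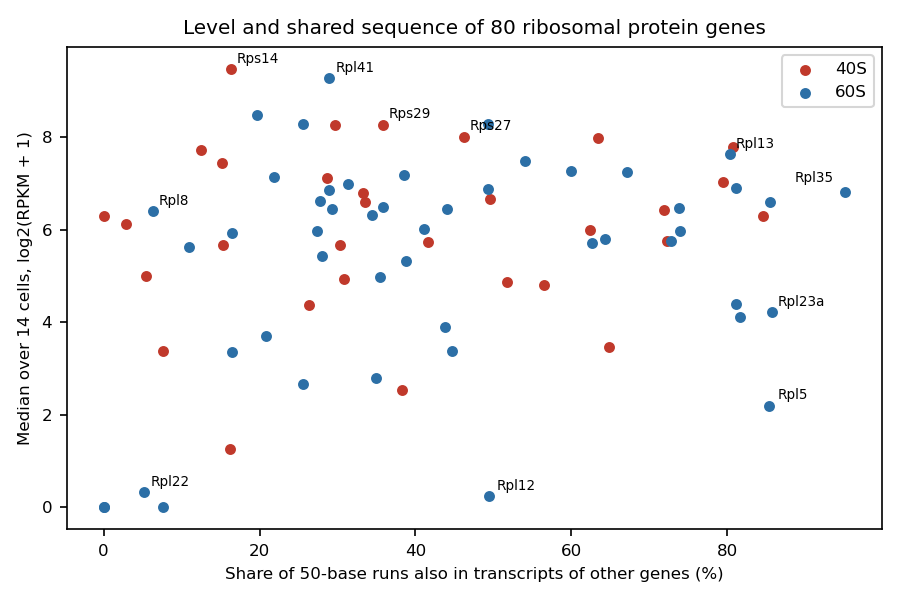
Median level over 14 cells, as log2(RPKM + 1), against the share of a member's 50-base runs that also occur in transcripts of other genes (percent), with 1 point per member, 40S in red and 60S in blue. Members under 10% stay at or below a median of 83.5 RPKM, and Rpl12 and Rpl5 are low at 49.4% and 85.4%.

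Pairs of members were weakly related over cells. Pearson's r of log2(RPKM + 1) over 14 cells had a median of 0.10 for the 2926 pairs of 77 members, with 0.09 within 40S, 0.12 within 60S and 0.09 between the subunits. All pairs of the 7976 genes had a median of -0.02. These cells share a mouse and differ in depth, and nothing is read from values this small. Whole profiles of members correlated between cells by -0.08 to 0.58, with a median of 0.26, and GL_M_36 and GL_M_47, the cells with the most genes, were the most alike.

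Close relatives outside the symbol rule included high genes. Rps3a1, a 40S core protein, had a median RPKM of 251 and was detected in 13 cells, with 1542 in GL_M_60. Fau, which encodes a fusion of a ubiquitin-like protein with a 40S protein, had 64.7 and was detected in 10. Rack1, a scaffold on the 40S head, was detected in 7. The copies Rpl7l1, Rpl36al and Rpl22l1 had medians of 3.09, 2.03 and 0.282.

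The middle member, at 66.5 RPKM, was above the middle gene of each other list of translation or ribosome-building genes, the highest of which was 4.58 for the other TOP mRNAs. Of 77 mitochondrial ribosomal protein genes 0 were detected in all cells and 71 in some. The highest was Mrpl48, with a median of 25.4. Of 32 initiation factors Eif1 alone was detected in every cell, at 76.3 to 988, and Eif4g2 had a median of 122. Of 9 elongation genes Eef1a1, which delivers aminoacyl-tRNA, was detected in every cell, with a median of 516, and Eef2 in 13. Of 20 other TOP mRNAs 1, again Eef1a1, was in all cells and 4 were at 10 or more in at least 10. Hnrnpa1 and Tpt1 had medians of 71.2 and 72.3.

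Among 49 ribosome biogenesis genes, 39 were detected in some cell and 0 in all, where the share over genes detected in some cell was 1.55%. Sbds, which helps to release a factor that keeps the subunits apart, had a median of 292, nucleolin (Ncl) 89.7 and nucleophosmin (Npm1) 33.4. All 11 genes of RNA polymerase I and its factors were detected in some cell and 0 in all, led by the initiation factor Rrn3 at a median of 7.31. Both lists are too short to set a count of 0 apart from that share. Of 20 TOP regulators and mTORC1 genes Cnbp, a nucleic acid binding protein, was in every cell, with a median of 402. Rps6kb1, which encodes an S6 kinase, had a median of 18.8 and was detected in 7 cells. Mdm2 was detected in 2 cells and Trp53 in 4.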

How the data were processed

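The deposited values are RPKM made by the authors, 1 column per cell, all 14 matched to cell titles. Per the submitters' processing notes, TopHat2 2.0.12, HTSeq 0.6.1 and the mm10 build were used; the annotation release, the treatment of reads with several places and any filter on cells were not given in the sources. Of 35271 genes 34488 matched GENCODE M21 (GRCm38), which gave symbols, gene types, coordinates and exon lengths.

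Read totals came from the smallest steps of RPKM at genes with 1 annotated transcript. Shared sequence is the share of 50-base runs of protein-coding transcripts that occur in GENCODE transcripts of other genes on either strand; no genome was used. Start windows come from the RefSeq promoter table. Levels are RPKM unless marked as log2(RPKM + 1). SDs of genes over cells, correlations between pairs of members and correlations of member profiles between cells use log2(RPKM + 1). Molecular identifiers are not mentioned, so intervals and floors cover counting error only. For a zero, depth gives a floor in reads, and transcripts lost before sequencing are not covered by it. Python 3.11.15, numpy 2.4.6, pandas 2.3.3 and scipy 1.17.1 were used, and the scripts were tested on simulated data.

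Members, lists and the rule for named genes (highest members by subunit, members in all cells or none, the most and least variable, role groups, the 4 highest of other lists) were chosen with earlier results of these data known. Alternatives changed the detection limit, list, cells, pseudocount, run length and shared sequence. Named outside this rule, after their values were seen, were Rpl7a, Rpl10, Rpl14, Rpl15, Rpl18, Rpl30, Rpl34, Rpl37, Rpl38, Rps6, Rps7, Rps10, Rps27a, Rpsa, Rps3a1 and Fau. Some genes that this rule covers are not reported here.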

Additional observations from a re-analysis of the deposited data

How the results depend on the processing

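Of 69 alternative values over 10 results, 59 stayed within the SD over cells or, where a result has no value per cell, within 1.5 times the main value, and 10 moved further. The number of members detected in every cell depended most on the limit, being 40 for any value above 0, 5 at a limit of 5 and 2 at a limit of 10, against 10 at a limit of 1. The median number of members detected per cell was 74 for any value above 0. Without the 4 copies, 0 members were detected in no cell. With the 54 members under 50% shared sequence, the median number detected per cell was 40.5 and the share of RPKM 1.53%, both by fewer genes. The ratio of 40S to 60S, 0.776 as a ratio of sums, was 1.75 from mean log2 levels. These measures are unlike, because the sums are over 31 and 49 genes and the log2 levels are per gene. Per gene, the ratio of mean RPKM was 1.23. Without the 4 copies the median difference of 40S from 60S in mean log2(RPKM + 1) was 0.454, against 0.810 with them. The ratio of shares detected, 1.06, was 0.998 without the 4 copies. The median SD over cells was 1.95 with a pseudocount of 10, against 2.98. A window of 50 bases gave 51 members with a pyrimidine run, against 29. Without GL_M_30, without GL_M_55 or without GL_M_36 and GL_M_47 the recomputed results stayed within these bounds, with 10, 14 and 10 members in every cell. The correlation between pairs of members was recomputed only without GL_M_36 and GL_M_47. Shared sequence and pyrimidine runs do not depend on the cells. No paired analysis was possible because the cells form 1 group, with no second group whose replicate numbers could match; 40S and 60S genes were compared within each cell. The floor of 3 reads covers counting error only, and 14 cells of 1 mouse limit every share.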
